A study of Homo sapiens with 3 samples.

Results

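The anaphase-promoting complex or cyclosome (APC/C) is the ubiquitin ligase that ends mitosis and then holds cells in G1. Here 10 of its genes were followed by symbol through the 22613 genes listed per library: 7 cofactors and substrates whose activity turns over with the cell cycle (CDC20, FZR1, FBXO5, UBE2C, UBE2S, PTTG1 and ESPL1) and 3 core subunits (ANAPC7, CDC27 and CDC16). All 10 were found, and all 10 were among the 14401 genes that passed a mean of at least 1 FPKM (sequenced fragments scaled by transcript length and library size) over the 3 libraries. ESPL1 is counted with this first set because its protein, separase, is released when the APC/C destroys its inhibitor; it is not itself counted as a substrate here.

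RNA came from LNCaP-abl, a subline of LNCaP prostate cancer cells that grows without androgen, at passage 53 to 60, kept without phenol red in serum stripped of steroids. The cells received by lipid transfection either an siRNA pool against the transcription factor E2F1 (siE2F1, 1 library) or control siRNA (2 libraries, numbered 0 and 1 in the labels), and RNA was taken after 72 h. The comparison asks how expression differs once E2F1 is silenced. The siE2F1 side is thus a single library. Nothing in the labels tells whether the controls are separate cultures. The spread behind each p-value comes only from these 2 control libraries, from the gene itself and from all genes tested, and may be technical.

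In mitosis the APC/C is switched on by CDC20, once the spindle checkpoint lets go of it, and marks securin and the mitotic cyclins for the proteasome. In late mitosis and G1 the related activator FZR1 (also called CDH1) takes over, and FBXO5 (EMI1) shuts that form off when cells commit to S phase. UBE2C starts ubiquitin chains on substrates and UBE2S lengthens them. E2F factors and, through the CHR element, the MuvB complexes are known to control many genes of this kind, while the core subunits are known to be present throughout the cycle.

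The stretches of promoter that follow are shown because CDC20, FBXO5 and ESPL1 are the 3 members whose RefSeq window (GRCh38.p14, 250 bases before the start to 50 after) held both a CHR element and a CCAAT box, and because CDC16 was the single member with an E2F match. Each runs 5′ to 3′ along the gene's strand, from 120 to 26 bases before the annotated start, and capitals mark the matches. FBXO5 is shown at the downstream of its annotated starts.
CDC20 (chr1:43358861-43358955, plus strand): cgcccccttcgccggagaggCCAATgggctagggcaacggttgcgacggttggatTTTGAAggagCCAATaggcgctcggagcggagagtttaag
FBXO5 (chr6:152983067-152983161, minus strand): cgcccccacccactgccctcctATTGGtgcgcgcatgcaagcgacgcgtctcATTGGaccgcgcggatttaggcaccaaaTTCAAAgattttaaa
ESPL1 (chr12:53268179-53268273, plus strand): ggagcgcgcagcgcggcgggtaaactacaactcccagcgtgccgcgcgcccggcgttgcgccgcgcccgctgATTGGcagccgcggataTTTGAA
CDC16 (chr13:114234777-114234871, plus strand): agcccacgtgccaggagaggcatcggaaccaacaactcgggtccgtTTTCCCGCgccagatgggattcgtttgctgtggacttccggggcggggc

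The letters searched, on both strands of the whole 300-base window, were TTTGAA and TTCGAA for the CHR, CCAAT for the box bound by NF-Y, and TTTCCCGC, TTTGGCGC, TTTCGCGC and TTTGCCGC for E2F. A CCAAT box that reads on both strands counts once on each, and in the members no match of one motif overlapped a match of another. Windows were found for 9 members, 6 cofactors and substrates and 3 core subunits; none is shown for UBE2C. In CDC20 a CHR began 65 bases before the start, between CCAAT boxes at 100 and 55 bases, and a further CHR on the opposite strand lay at 178 bases. In ESPL1 a CHR at 31 bases lay downstream of a CCAAT box on the opposite strand at 48 bases, and FBXO5 carried a CHR on the opposite strand at 40 bases below 4 CCAAT matches. Of all 35116 windows, 16.4% held a CHR, 34.6% a CCAAT box, 6.38% both and 3.31% an E2F match. Counted by gene over all its windows, 15.1% of the 8828 tested genes with a window had a CHR, 43.7% a CCAAT box, 6.31% both in the same window and 6.77% an E2F match. Among the members, 3 of 6 cofactors and substrates held both a CHR and a CCAAT box, FBXO5 in its downstream window alone, and 0 of 3 core subunits did. FZR1 and ANAPC7 held a CHR with no CCAAT box, at 226 and 236 bases, and PTTG1, UBE2S, CDC27 and CDC16 a CCAAT box with no CHR. These are matches of letters, not mapped sites.

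E2F1 itself was at 1.68 FPKM in siE2F1 cells, against 10.6 and 10.6 FPKM in control 0 and control 1, which checks the labels. Of the cell markers looked up, KRT8, KRT18, EPCAM, HOXB13 and FOXA1 lay between 42.8 and 163.7 FPKM in every library, while KLK3, a product of luminal prostate cells, was at 0.156 FPKM in siE2F1 and at 0.152 and 0.0531 FPKM in the controls. Of 8 markers of other cells, 4 had a row: PTPRC, COL1A1 and PECAM1, of leukocytes, fibroblasts and endothelium, reached at most 1.15 FPKM, and LYZ, of myeloid cells, was at 3.84 FPKM in siE2F1 and at 3.66 and 3.51 FPKM in the controls. Depth is unknown because no counts were given, so no counting interval stands beside the levels.

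Across the members, siE2F1 was lower for the cycling cofactors and close to the controls for FZR1 and the core. In the siE2F1 library 9 of the 10 members were below both controls, where 39.7% of all genes tested were, and 1, FZR1, was above both, where 43.7% were. At least 0.5 log2 units (1.41-fold) below both lay 4 members, where 4.92% of all genes did, and 0 lay as far above, where 3.46% did. These 4 were CDC20, UBE2S, UBE2C and FBXO5. None of the 10 was called by limma at an adjusted p of 0.05 over all genes tested, where 0.417% of genes were called, 0.104% lower and 0.312% higher. At an unadjusted p under 0.05 stood 6 members as lower and 0 as higher, against 14.9% and 13.5% of all genes. Between the controls 45.7% of small RNA genes tested lay at least 1 log2 unit apart, against 0.337% of the others. Without small RNA genes 5 of the 10 passed as lower (CDC20, UBE2S, UBE2C, FBXO5 and PTTG1), and 0 as higher, where 6.36% and 4.17% of the 13928 remaining genes did (10.5% in either direction). In bulk RNA, fewer cells in mitosis and less RNA per cell cannot be told apart.

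**Figure D1:**
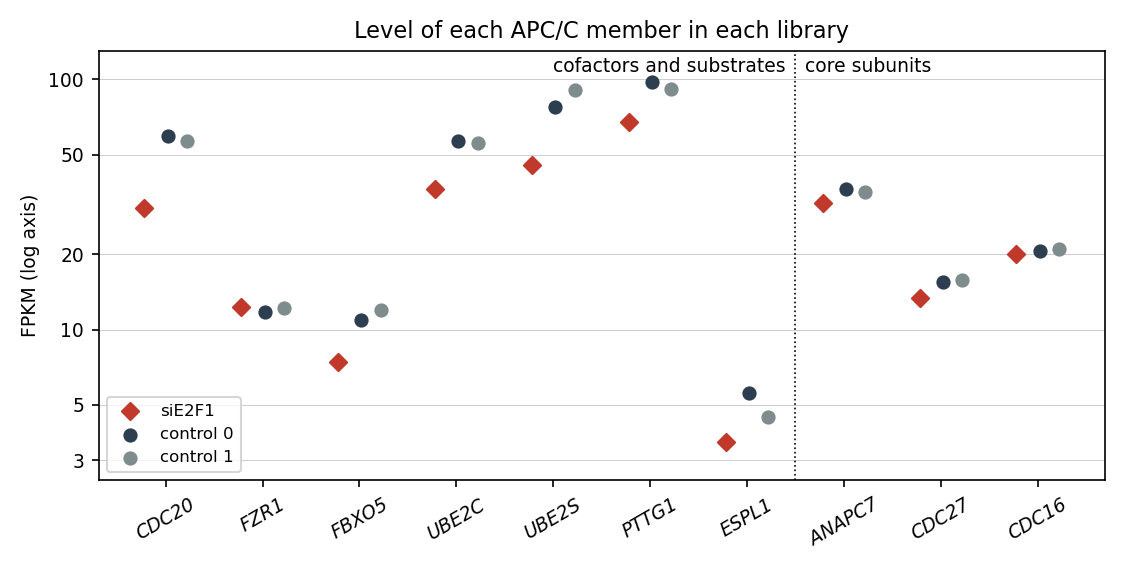
FPKM of the 10 members in the siE2F1 library (diamonds) and in control 0 and control 1 (circles), on a log axis; 1 point is 1 library. CDC20 stands at 30.5 FPKM in siE2F1 against 59.4 and 56.8 FPKM in the controls, while CDC16 stands at 20.04 against 20.7 and 20.9 FPKM.

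The activators parted. CDC20, the mitotic activator and target of the spindle checkpoint, was at 30.5 FPKM in siE2F1, against 59.4 and 56.8 FPKM in control 0 and control 1. The siE2F1 level was 52.5% of the control mean (58.1 FPKM ± 1.89, SD, n = 2), and the controls lay far closer to each other than either did to siE2F1. All fold changes given are differences in log2(FPKM + 1); that of CDC20 was -0.91 (SE 0.0695), with a limma adjusted p = 0.111 (adjusted p = 0.0272 without small RNA genes), at percentile 2.09 of all genes tested counted from the lowest. FZR1, the activator of late mitosis and G1, was at 12.3 FPKM in siE2F1 and at 11.8 and 12.2 FPKM in the controls. Its siE2F1 value lay just above both controls, and the log2 fold change was 0.03, with a 95% limma interval of -0.19 to 0.25 (adjusted p = 0.779). Per transcript length there were 2.48 units of CDC20 to 1 of FZR1 in siE2F1, against 5.05 and 4.65 in control 0 and control 1. These and the other ratios were chosen after the values were seen.

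FBXO5, the F-box protein that inhibits APC/C with FZR1 during S phase and G2, was at 7.41 FPKM in siE2F1, against 10.96 and 11.95 FPKM in control 0 and control 1. The single siE2F1 value was below both controls, as for 39.7% of all genes tested, and stood at 64.7% of the control mean (11.5 FPKM ± 0.702, SD, n = 2). The FBXO5 log2 fold change was -0.56 (SE 0.0845) (limma, adjusted p = 0.112; 0.0407 without small RNA genes). Since FZR1 was near its control level, the FPKM ratio of activator to inhibitor was 1.65 in siE2F1, against 1.07 and 1.02 in the controls.

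The ubiquitin-conjugating enzymes were both lower. UBE2C, which places the initial ubiquitins, was at 36.6 FPKM in siE2F1, against 56.7 and 55.4 FPKM in the controls. The controls lay close together here, and siE2F1 was at 65.2% of their mean, a log2 fold change of -0.60 (SE 0.0627) (limma, adjusted p = 0.111; 0.036 without small RNA genes). UBE2S, which extends chains through lysine 11 of ubiquitin, was at 45.5 FPKM in siE2F1, against 77.8 and 90.8 FPKM in the controls. Its controls were 0.22 log2 units apart, wider than for 86.6% of genes tested, yet siE2F1 was 0.76 and 0.98 log2 units below control 0 and control 1. The UBE2S log2 fold change was -0.87 (SE 0.131) (limma, adjusted p = 0.112; 0.0368 without small RNA genes). UBE2C and UBE2S summed to 1.26 times the FPKM of the 3 core subunits in siE2F1, against 1.85 and 2.03 times in the controls.

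Securin and separase are the pair that decides when sister chromatids part. Against the mean of the controls their fold changes were smaller than those of CDC20, UBE2S, UBE2C and FBXO5. Against control 0 alone this order did not hold, with PTTG1 and ESPL1 both at -0.53 and FBXO5 at -0.51. PTTG1 (securin, the APC/C substrate that blocks separase) had the highest level of all members, 67.2 FPKM in siE2F1 against 97.5 and 91.2 FPKM in the controls. Its siE2F1 value was below both controls, at 71.2% of their mean, with a log2 fold change of -0.48 (SE 0.0792) (limma, adjusted p = 0.117; 0.0439 without small RNA genes). ESPL1 (separase, the protease that cuts cohesin) was at 3.57 FPKM in siE2F1, against 5.60 and 4.46 FPKM in control 0 and control 1, the lowest level of the members. The controls differed by 0.27 log2 units, against 0.26 between siE2F1 and control 1, so ESPL1 did not stand apart from the spread between controls. The log2 fold change was -0.39 with an interval of -0.93 to 0.14 (limma, adjusted p = 0.239), -0.53 against control 0 alone and -0.26 against control 1 alone. The ratio of PTTG1 to ESPL1, 18.8 in siE2F1, lay between those of control 0 and control 1, 17.4 and 20.5.

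PTTG1 has near-identical copies in the genome, PTTG2 and PTTG3P, and reads could be split among them. PTTG2 was listed at 0.306 FPKM in siE2F1 against 0.885 and 0.951 FPKM in the controls. PTTG3P was at 0.396 FPKM in siE2F1 against 1.15 and 0.842 FPKM in the controls. Both were too low to be tested, and both lay below their controls as PTTG1 did. GENCODE release 29 also names 4 pseudogenes after UBE2C, 3 after CDC27, 2 after UBE2S and 1 after CDC20, so reads of these members may be shared as well. None of these pseudogenes had a row here, so such sharing could not be looked at.

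The core subunits were near their control levels. ANAPC7 (APC7), a scaffold subunit built of tetratricopeptide repeats, was at 31.9 FPKM in siE2F1, against 36.3 and 35.4 FPKM in the controls. CDC27 (APC3), the repeat subunit that receives the tails of CDC20 and FZR1, was at 13.3 FPKM in siE2F1, against 15.6 and 15.7 FPKM in the controls. CDC16 (APC6), a further repeat subunit, was at 20.04 FPKM in siE2F1, against 20.7 and 20.9 FPKM in the controls. Each siE2F1 value was below both controls, at 89.0%, 85.1% and 96.4% of the control mean for ANAPC7, CDC27 and CDC16. Their log2 fold changes were -0.16, -0.22 and -0.05, with 95% limma intervals of -0.38 to 0.05, -0.42 to -0.02 and -0.25 to 0.15 and adjusted p = 0.233, 0.165 and 0.609. None was called by limma without small RNA genes either, where 10.5% of genes were (adjusted p = 0.212, 0.132 and 0.666). Their controls differed by only 0.01 to 0.04 log2 units, so shifts of 0.05 to 0.22 exceeded that gap without passing the test. Over all genes tested the fold changes also spread wider than the control difference. Their 5th to 95th percentiles were -0.58 to 0.52, against -0.24 to 0.27 for control 1 minus control 0. Among those fold changes ANAPC7, CDC27 and CDC16 stood at percentiles 26.3, 21.3 and 40.1.

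**Figure D2:**
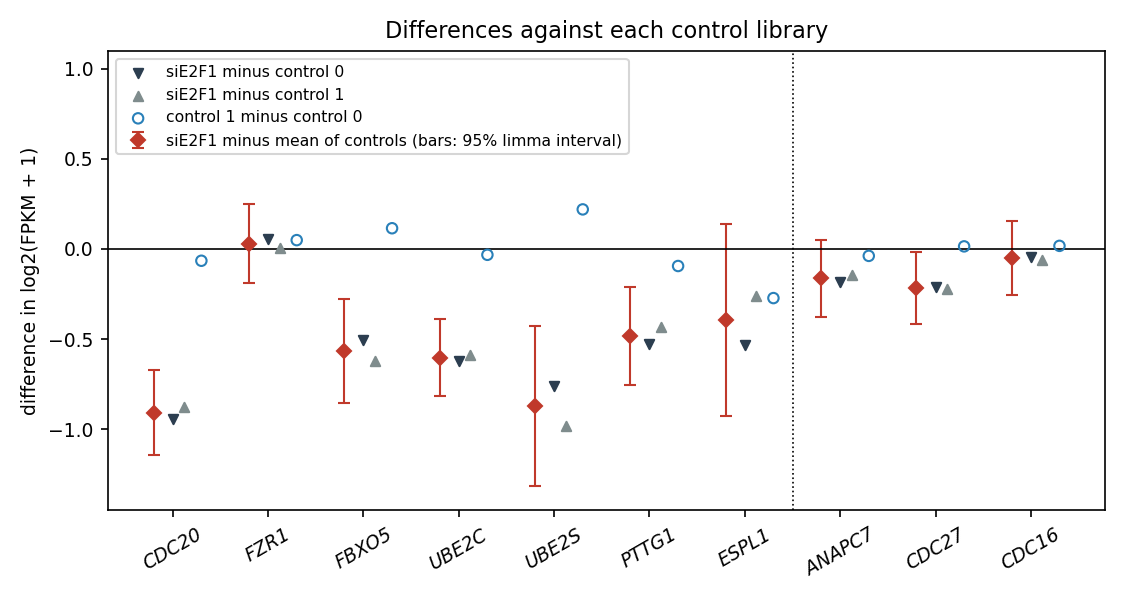
Differences in log2(FPKM + 1) for each member: siE2F1 minus the mean of the controls with its 95% limma interval (diamonds), siE2F1 minus control 0 and minus control 1 (triangles), and control 1 minus control 0 (open circles). From CDC20 at -0.91 to FZR1 at 0.03 the cofactors and substrates spread widely, while the 3 core subunits lie between -0.22 and -0.05.

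Set against each other, the 7 cofactors and substrates had a median log2 fold change of -0.56 (range -0.91 to 0.03) and the 3 core subunits -0.16 (range -0.22 to -0.05), where the median over all genes tested was 0.01. The difference of these medians was -0.40, and it was -0.35 and -0.44 against control 0 and control 1 taken alone. The same difference computed between the controls (control 1 minus control 0) was -0.05. Since the members were chosen with results known, no p is attached to it. In FPKM summed over members, cofactors and substrates came to 203.0 in siE2F1 against 319.8 and 322.9 in the controls, and core subunits to 65.3 against 72.6 and 72.0.

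Levels per length ranked the members in nearly the same order in each library. By the control mean they ran PTTG1, UBE2S, CDC20, UBE2C, ANAPC7, CDC16, CDC27, FZR1, FBXO5 and ESPL1, from 94.4 down to 5.03 FPKM. FZR1 and FBXO5 were the neighbours whose control ranges overlapped, so their control levels do not differ beyond that spread, although FZR1 was the higher in each of the 3 libraries. Other neighbours all but touched. The lower PTTG1 control was at 91.2 FPKM and the higher UBE2S control at 90.8 FPKM. For CDC20 and UBE2C the same values were 56.8 and 56.7 FPKM. With 2 controls these orders are not settled either. In siE2F1 CDC20 stood 5th, behind UBE2C and ANAPC7, instead of 3rd; the other places that changed were those of UBE2C and ANAPC7, each 1 higher.

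**Figure D3:**
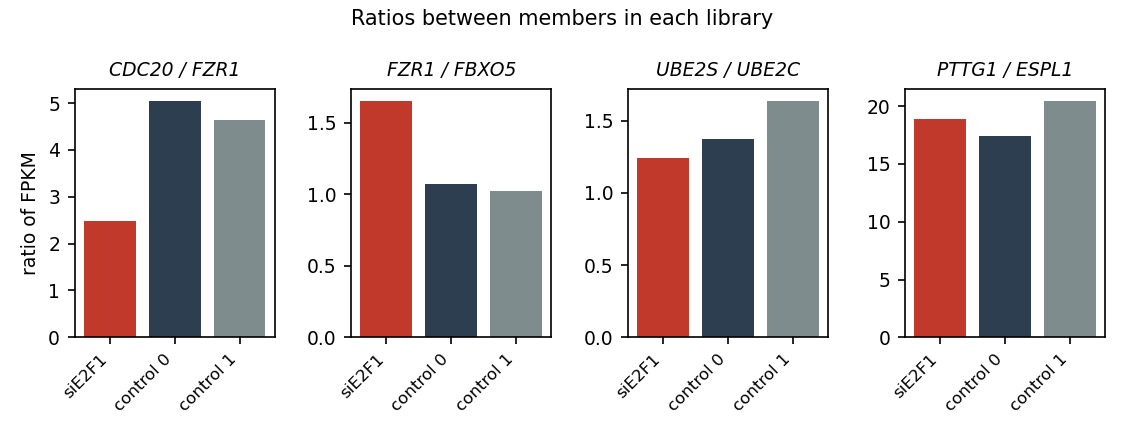
Ratios of FPKM between members in the siE2F1 library, control 0 and control 1, 1 bar per library, with axes from 0. CDC20 over FZR1 is 2.48 in siE2F1 against 5.05 and 4.65 in the controls, and FZR1 over FBXO5 is 1.65 against 1.07 and 1.02; PTTG1 over ESPL1 lies between the controls.

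The remaining 11 APC/C subunits, all measured, lay on either side of the controls. Of these, 6 were below both controls and 3 above, where 39.7% and 43.7% of all genes tested were. Their median log2 fold change was -0.04, against -0.16 for the 3 core members and 0.01 for all genes, a difference that was not tested. None, 0 of 11, were at least 0.5 log2 units beyond both controls, where 4.92% of all genes were below and 3.46% above. With small RNA genes 0 were called (0.417% of all genes), and without them 0 (10.5%). At an unadjusted p under 0.05, 1 was lower and 1 higher (14.9% and 13.5% of all genes). For so few genes, such counts say little about the list. The farthest beyond the nearer control was CDC26, a small subunit that stabilises CDC16, at 13.7 FPKM in siE2F1 against 17.4 and 16.4 FPKM in the controls (log2 fold change -0.28; limma, adjusted p = 0.154). ANAPC4, a scaffold subunit, went the other way, at 17.0 FPKM in siE2F1 against 14.5 and 14.2 FPKM in the controls (log2 fold change 0.23; limma, adjusted p = 0.162). ANAPC15, which helps free the APC/C from the checkpoint, and ANAPC13 had log2 fold changes of -0.22 and -0.10. Over all 14 core subunits the log2 fold changes ran from -0.28 to 0.23 with a median of -0.05.

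Genes of the mitotic checkpoint complex, the CDC20 inhibitor made at unattached kinetochores, and its regulators had an intermediate median but spread widely. Of 6 measured, 5 were below both controls (39.7% of all genes), and the median was -0.37 (range -0.75 to 0.04). Over all genes tested 0 were called (0.417% of all genes). Without small RNA genes 2 passed as lower (6.36% of all genes), and 4 were lower at an unadjusted p under 0.05 (14.9%). BUB1B (BUBR1), which binds CDC20 as a pseudosubstrate, was at 13.9 FPKM in siE2F1 against 24.02 and 24.1 FPKM in the controls (log2 fold change -0.75; limma, adjusted p = 0.111; 0.0303 without small RNA genes). TTK (MPS1), the kinase that starts checkpoint signalling, was at 7.61 FPKM in siE2F1 against 12.02 and 12.3 FPKM in the controls (log2 fold change -0.61; limma, adjusted p = 0.111; 0.0364 without small RNA genes). MAD2L1, which clamps CDC20, and BUB3 had log2 fold changes of -0.40 and -0.33 and were not called.

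Other APC/C substrates were lower almost throughout. Of 29 listed, 28 were measured; 27 of these were below both controls, where 39.7% of all genes were, and 13 by at least 0.5 log2 units, where 4.92% were. Their median was -0.54, beside -0.56 for the cofactors and substrates. No substrate was called over all genes tested, where 0.417% of genes were. At an unadjusted p under 0.05, 26 were lower (14.9% of all genes), and 24 passed as lower without small RNA genes (6.36%). CDC25A, the phosphatase that removes inhibitory phosphates from CDKs, lay farthest out, with a log2 fold change of -1.50. CDCA3, a trigger of mitotic entry, was at 14.6 FPKM in siE2F1 against 35.5 and 35.5 FPKM in the controls (log2 fold change -1.23; limma, adjusted p = 0.0874; 0.0204 without small RNA genes). ECT2, the exchange factor that sets up the cleavage furrow, was at 13.2 FPKM in siE2F1 against 27.8 and 29.4 FPKM in the controls (log2 fold change -1.06; limma, adjusted p = 0.111; 0.0272 without small RNA genes). RRM2, a subunit of ribonucleotide reductase, was at 19.5 FPKM in siE2F1 against 41.1 and 37.9 FPKM in the controls (log2 fold change -0.98; limma, adjusted p = 0.111; 0.0285 without small RNA genes). The 4 that did not pass without small RNA genes, named after their values were seen, were TPX2 (log2 fold change -0.51), ANLN (-0.22), GMNN (-0.06) and SKP2 (0.004). GMNN, the licensing inhibitor geminin, was at 71.4 FPKM in siE2F1 against 72.5 and 76.0 FPKM in the controls, and SKP2, an F-box protein that APC/C with FZR1 degrades, was at 8.02 FPKM in siE2F1, between control 0 and control 1 at 7.80 and 8.20 FPKM.

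**Figure D4:**
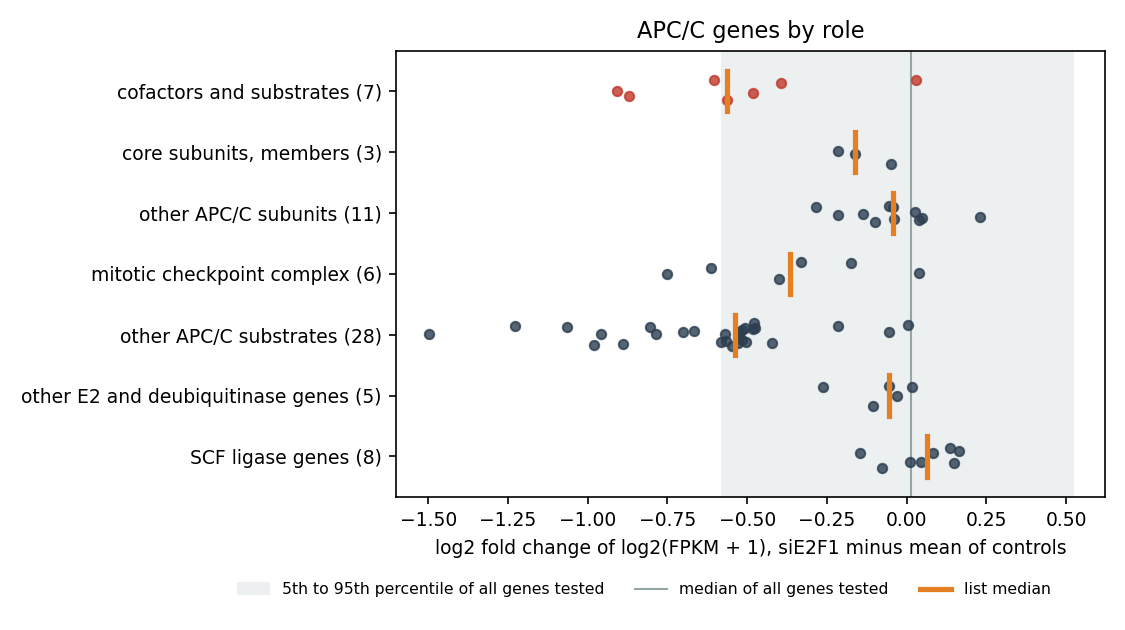
Log2 fold change (siE2F1 minus the mean of the controls, log2(FPKM + 1) scale) of each measured gene by role; 1 point is 1 gene, the thick bar is the list median and the shaded band spans the 5th to the 95th percentile of all genes tested, -0.58 to 0.52. Cofactors and substrates and the other APC/C substrates have medians of -0.56 and -0.54, against -0.16 for the core members and -0.04 for the other subunits.

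The other ubiquitin genes looked up lay near the controls. Of 5 measured genes for other E2 enzymes and deubiquitinases, 3 were below both controls and 0 above, with a median of -0.06 (all genes 39.7% and 43.7%, median 0.01). With small RNA genes 0 were called (0.417% of all genes), and without them 0 (10.5%). At an unadjusted p under 0.05, 1 was lower and 0 higher (14.9% and 13.5% of all genes). UBE2D3, an E2 enzyme that serves many ligases, was at 116.7 FPKM in siE2F1 against 141.2 and 139.4 FPKM in the controls (log2 fold change -0.26; limma, adjusted p = 0.147), its relative UBE2D2 had a log2 fold change of -0.10 and the deubiquitinase OTUD7B of -0.03. Among 8 genes of the SCF ligases, the other large ubiquitin ligase family of the cell cycle, 2 were below both controls and 3 above (all genes 39.7% and 43.7%). Their median was 0.06. With or without small RNA genes 0 were called (0.417% and 10.5% of all genes). At an unadjusted p under 0.05, 0 were lower and 0 higher (14.9% and 13.5%). For so few genes, such counts say little about these lists. The SCF genes farthest from the nearer control were RBX1 (log2 fold change -0.15), a RING subunit, BTRC (0.16) and FBXW11 (0.14), the F-box proteins that direct FBXO5 to destruction, and CUL1 (-0.08), the scaffold.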

How the data were processed

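RNA sequencing of 3 LNCaP-abl libraries was used, grouped by sample title. The authors deposited log2 FPKM for each gene in each library. TopHat2 2.0.4 and Cufflinks 2.0.2 stand in the submitters' processing notes, with build hg19; no source used here gives the annotation. Because the lowest deposited value equals log2 of 0.1, FPKM was taken as 2 to the deposited value minus 0.1; whether the authors added 0.1 or set a floor is unknown. Once sorted, the values of the libraries never lie more than 0.0653 log2 units apart, as scaling to one distribution would give, so a change shared by most genes could not be seen. Identical values above the floor (tolerance 1e-09) made up at most 0.199% of genes between libraries. Counts and depth are unknown.

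Genes averaging 1 FPKM or more were fitted on log2(FPKM + 1), a scale that compresses differences of low genes, in R 4.3.3 with limma 3.58.1 (mean-variance trend, two-sided, Benjamini-Hochberg over all genes tested, threshold 0.05). Only the controls give a spread, with 1 residual degree of freedom and 1.69 prior ones (3.19 without small RNA genes), and the siE2F1 library is assumed to vary as they do. The limma step was run on simulated data without small RNA genes, with all 3 libraries given the same spread. That run therefore tests neither this assumption nor the fit that includes small RNA genes. Small RNA genes are those whose symbol starts with SNOR, MIR, SCARNA or RNU, except host genes; 473 were tested. Lists were described by counts and medians beside all genes. Members, lists and the setting without small RNA genes were chosen with earlier results of these data known. Named are E2F1, the members, from each list up to 4 genes farthest beyond the nearer control, and near-identical copies. KIFC1, USP44 and the markers CD3E, COL1A2, DCN and VWF had no matching row and were not used here, and some genes of the lists are not reported here. Promoter windows are RefSeq's on GRCh38.p14, another build than the authors'. Settings varied were the pseudocount, the filter, scaling, trend, small RNA genes and each control.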

Additional observations from a re-analysis of the deposited data

How the results depend on the processing

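Under 8 of 9 alternatives 9 of the 10 members stayed below the controls used; at a minimum of 5 FPKM ESPL1 was not tested and 8 of the other 9 did. No member changed direction where it was tested, and the difference of medians between cofactors and core ran from -0.44 to -0.35 when 1 control was left out. The filter, trend and small RNA settings do not alter a member's own values, and a pseudocount keeps their order. Scaling left the members' fold changes as they were. A member outside both controls also stays outside either control alone. The counts below the controls and the directions were thus nearly fixed in advance and add no support. Calls depended on the genes tested: without small RNA genes 5 members passed, and 1467 genes in all (581 higher, 886 lower), against 60 (45 and 15). A pseudocount of 0.1 called 18 genes, 7 of them higher, and moved the median of cofactors and substrates to -0.62. With no filter on mean FPKM 0 genes were called, 0 higher and 0 lower, with limma; a minimum of 5 FPKM called 26 higher, with 310 at least 0.5 log2 units above both controls against 498. The E2F1 call itself was lost on dropping the filter (adjusted p = 0.159) or on changing the pseudocount (adjusted p = 0.0601). Leaving out 1 control leaves no residual degree of freedom, so these are values with no test, and the size rule is easier to meet: 1796 to 1842 genes, 811 to 825 of them higher, against 1206 and 498, and 4 to 6 members. Members' adjusted p ranged from 0.0272 to 0.188 for CDC20 and from 0.143 to 0.339 for ESPL1. Of 14401 genes tested, removing small RNA genes leaves 13928 and a minimum of 5 FPKM leaves 9605 by construction. Removing small RNA genes also changed the variance fit, with 3.19 prior degrees of freedom against 1.69. How far either accounts for the calls was not tested. No paired analysis was possible because a single siE2F1 library gives at most 1 pair and so no spread, and its title carries no replicate number. Unknown depth limits the low genes most, ESPL1 among the members.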

Other observations

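Relatives of the members that act outside the mitotic cycle were low or little different. FBXO43 (EMI2), the meiotic counterpart of FBXO5, was at 0.34 FPKM in siE2F1, against 0.232 and 0.395 FPKM in control 0 and control 1, so it lay between the controls. CDC20B, a relative of CDC20 known from multiciliated cells, was at 0.0211 FPKM in siE2F1, against 0.063 and 0.0908 FPKM in the controls. Both were too low to be tested. PTTG1IP, a membrane protein that binds securin, was at 39.1 FPKM in siE2F1, against 45.3 and 45.7 FPKM in the controls (log2 fold change -0.21; limma, adjusted p = 0.17). ANAPC1P1, a pseudogene of the subunit ANAPC1, was at 3.90 FPKM in siE2F1, against 3.90 and 3.20 FPKM in the controls; ANAPC1 had 18.7 FPKM in siE2F1, against 20.7 and 17.9 FPKM, and reads of this pair may be shared. These genes were chosen after their values were seen.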
